A study of Coprinopsis cinerea AmutBmut pab1-1 with 201 samples.

Results

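The genes described here are the 200 most evenly expressed of the moderately expressed genes of the inky cap mushroom Coprinopsis cinerea, out of 13617 genes counted. They were chosen on CPM, the count of a gene per 1000000 counts of its library, averaged over the 3 libraries of each group. A gene entered the window when its lowest mean over 66 groups was at least 15 and under 100 CPM, and 1722 genes did. Among these, the 200 with the smallest coefficient of variation (CV), the SD of the 66 group means divided by their mean, are the stable genes. A further 133 genes had a lowest group mean of 100 CPM or more and 11762 had one under 15 CPM, and neither kind could be chosen. The same group means that chose the genes are given here as a description with no test. The mixed culture in which this fungus and Trichoderma had grown over each other (CTGT) was left out of the choice, and its comparison with dark-grown mycelium is the test of these genes.

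A gene that is called stable keeps a similar share of the messenger RNA whatever the cell is doing. Genes for basic cell functions that every cell needs are often of this kind, and stable genes of middling level are the usual material for reference genes, against which other genes are measured. The share is a relative measure. When a few very abundant messages take up more of the library, the share of every other gene falls although its own RNA may not have changed. A smaller number of transcripts per cell and a smaller number of active cells cannot be told apart in such bulk samples. The deposited files give these genes only identifiers, and none of the 200 matched the 13657 genes of the reference table, so no product or role is given for any of them.

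The 201 libraries, 3 for each of 67 groups, were 3′ end messenger RNA libraries from the strain AmutBmut pab1-1, which has mutations in both mating type factors and the allele pab1-1. The germination groups were oidia (asexual spores) at 0 and 18 h (OIDIA_0h, OIDIA_18h) and basidiospores (sexual spores) at 0, 4, 8 and 12 h (BS_0h to BS_12h). Vegetative mycelium in darkness was sampled at 12, 36, 60, 84, 108 and 132 h (DM_12h to DM_132h), and at 156 h as aerial (DM_156h_AE) and attached (DM_156h_AM) mycelium. Both of these tissues were followed through 1 and 2 h of light (ELI) and 2, 6, 12, 18 and 24 h of the darkness after it (LI), at the end of which hyphal knots, the first aggregates of a fruiting body, were also taken (LI_24h_HK). Primordia, the young fruiting bodies, came from 6, 12, 18 and 24 h of a light and dark cycle (L_D). DM_132h was the control of 4 groups, the first 3 of them 6 days old: 30 min at -20 °C (min20), 2 h of heat shock at 47 °C (HS47), sealed plates (CO2) and sclerotia, resting bodies grown for 4 weeks in which the labels allow some mycelium (Sclero). Cold for 4 h at 4 °C (Cold), drought (DR) and cutting followed by 3 h (Scratchy) had DM_84h as control. Starvation on water agar for 2, 4, 8, 16 and 24 h (SWAT) and first contact with Trichoderma (CTMP) had DM_60h, and the mixed culture of both fungi after 60 h (CTGT) had DM_108h. In liquid, 1 mM hydrogen peroxide for 3 h (H2O2), acidic and alkaline medium for 3 h (pH_4, pH_9), 10% sorbitol for 2 h (Sor) and 1% congo red for 3 h (CR) were set against LoKoLiquide. Calcium at 200 mM for 24 h (Calci), 2 mM copper sulfate for 6 h (Cu) and voriconazole at 0.5 µg/ml for 48 h (Vor) were set against LoKo. Cobalt chloride at 2 mM on cultures of 7 days, which then had 2 h of light and 22 h of darkness (Cocl), was set against CoK, and 24 h in hypoxia bags (Hyp) against HypK. The last groups were cultures on 1% water agar, labelled as hyphal knot minus 30, 22.5, 15 and 7.5 h (a_30 to a_7_5), as hyphal knot (HK) and as hyphal knot plus 7.5 h (HK_plus_7_5). The minus was read here as time before the knot, and a_30 was used as the starting point.

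Library totals in the 66 groups that entered the choice ran from 1034515 to 26101402 counts. The 2 lowest were library 1 of LI12hAM with 1034515 and library 1 of Cold with 1673596. The 3 CTGT libraries held 213736, 533936 and 961041 counts. Library 3 of LoKo stood apart: it held the lowest value of 39 of the 200 genes, where the next libraries, HS47 library 2 and BS_0h library 2, held 20 each. In that library the 10 most abundant genes took 28.3% of the counts, against 17.9% and 18.7% in the other 2 LoKo libraries. Of the 200 genes, 197 were chosen again without it, a check added after seeing the data. The labelled tissues could not be checked against marker genes, because the identifiers have no names.

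The CV of the 200 genes started at 0.194 and had a median of 0.266, against a median of 0.469 and a highest value of 3.65 for the 1522 other genes of the window. The limit of 100 CPM held for the lowest group only, and the means over the 66 groups were 25.7 to 1381 CPM, with a median of 74.7 CPM. The gene with the highest mean, CopciAB_437401.T0, was in the window through its lowest group, BS_0h, at 84.9 CPM. In 49 of them the mean was under 50 CPM and in 65 it was 100 CPM or more. The highest group mean was 2.11 to 24.1 times the lowest, with a median of 4.22 times for the stable genes and 9.40 times for the other genes of the window. A ratio under 3 was found in 21 of the stable genes, and a ratio of 10 or more in 9. For 8 of the 200 genes the deposited count was not a whole number in 50% or more of the libraries, as can arise where the counting splits reads that fit more than 1 place.

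**Figure D1:**
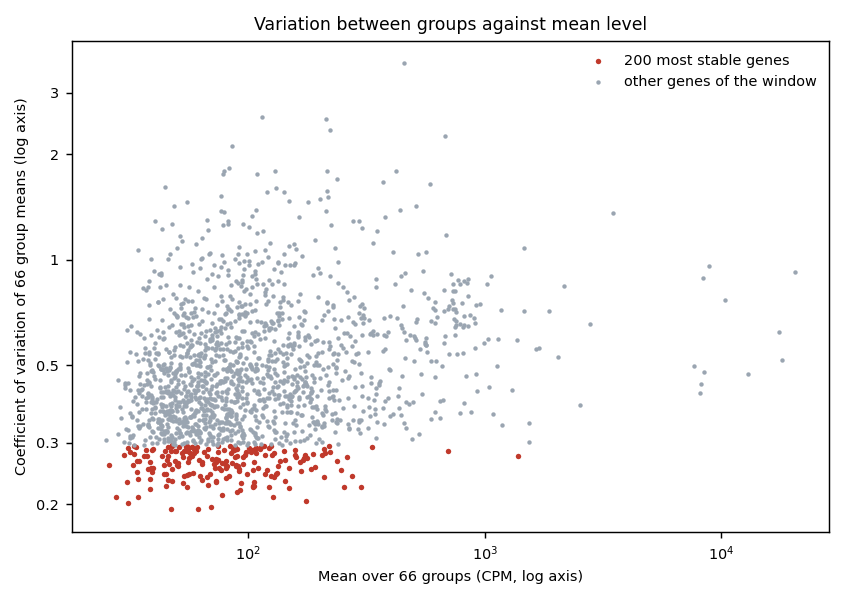
Each point is 1 of the 1722 genes of the window, with its mean over 66 groups (CPM, log axis) across and the CV of its 66 group means (log axis) up. The 200 stable genes form the lower edge, starting at 0.194, at means from 25.7 to 1381 CPM.

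The last genes inside the limit were CopciAB_440917.T0 with a CV of 0.29436, CopciAB_512781.T0 with 0.29446 and CopciAB_368879.T0 with 0.29499. The first genes outside were CopciAB_452642.T0 with 0.29503, CopciAB_498328.T0 with 0.29556 and CopciAB_493093.T0 with 0.29562. No gap separated the genes inside from those outside.

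Most groups lay close to each gene's own mean. A stable gene was within 1.5-fold of its mean in 50 to 64 of the 66 groups, with a median of 58 groups, against 45 groups for the other genes of the window. None of the 200 was within 1.5-fold in all 66. In ELI1hAE, LI6hAM and LI12hAE all 200 genes were within 1.5-fold of their mean, and in 28 groups at least 190 were. The widest scatter was in the resting spores and under heat shock, with 100 to 109 of the genes inside 1.5-fold in BS_0h, HS47 and OIDIA_0h.

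In the accounts of single genes that follow, levels are in CPM by library total, and a log2 change is the one fitted on the TMM scale, which sets the middle of the genes equal between libraries in place of the total. The most even gene, CopciAB_502264.T0 (scaffold 13, 348241 to 350538, plus strand, 4 exons), averaged 61.0 CPM over the 66 groups with a CV of 0.194. It had 87.3, 98.6 and 71.2 CPM in H2O2, its highest group, and 34.1, 34.4 and 35.1 CPM in BS_0h, its lowest. The H2O2 libraries all lay above the BS_0h libraries, although the highest single value of the gene, 152 CPM, came from library 3 of LoKo, where the other libraries had 49.9 and 50.5 CPM. Its count was not whole in 60.1% of the libraries.

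CopciAB_432113.T0 (scaffold 6, 2280673 to 2284524, plus strand, 15 exons) averaged 46.9 CPM. It had 71.8, 60.8 and 82.2 CPM in ELI2hAE, its highest group, and 18.0, 25.5 and 29.9 CPM in BS_4h, its lowest. Resting basidiospores had 31.7, 29.5 and 27.2 CPM, and 2 of the 3 BS_4h libraries lay below all of them, with a log2 change of -1.20 ± 0.17 (SE). The count of this gene was not whole in 59.1% of the libraries.

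CopciAB_157687.T0 (scaffold 5, 1769327 to 1771627, plus strand, 4 exons) averaged 69.3 CPM and had other extremes. It was highest in resting oidia, with 149, 80.7 and 97.4 CPM in OIDIA_0h, and lowest under copper, with 40.4, 43.0 and 37.3 CPM. Library 1 of OIDIA_0h was well above the other 2.

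CopciAB_459700.T0 (scaffold 7, 1335446 to 1338235, minus strand, 7 exons) was even at a low level, with a mean of 30.8 CPM. Its highest group was DM_156h_AE with 46.9, 48.0 and 42.2 CPM and its lowest was Sor with 20.8, 16.0 and 17.9 CPM. The liquid control of the sorbitol libraries had 23.0, 27.3 and 27.8 CPM, so all 3 sorbitol values lay below it, while the log2 change of -0.53 ± 0.21 was not called. Resting basidiospores were as low as sorbitol, with 20.5, 15.4 and 19.4 CPM.

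**Figure D2:**
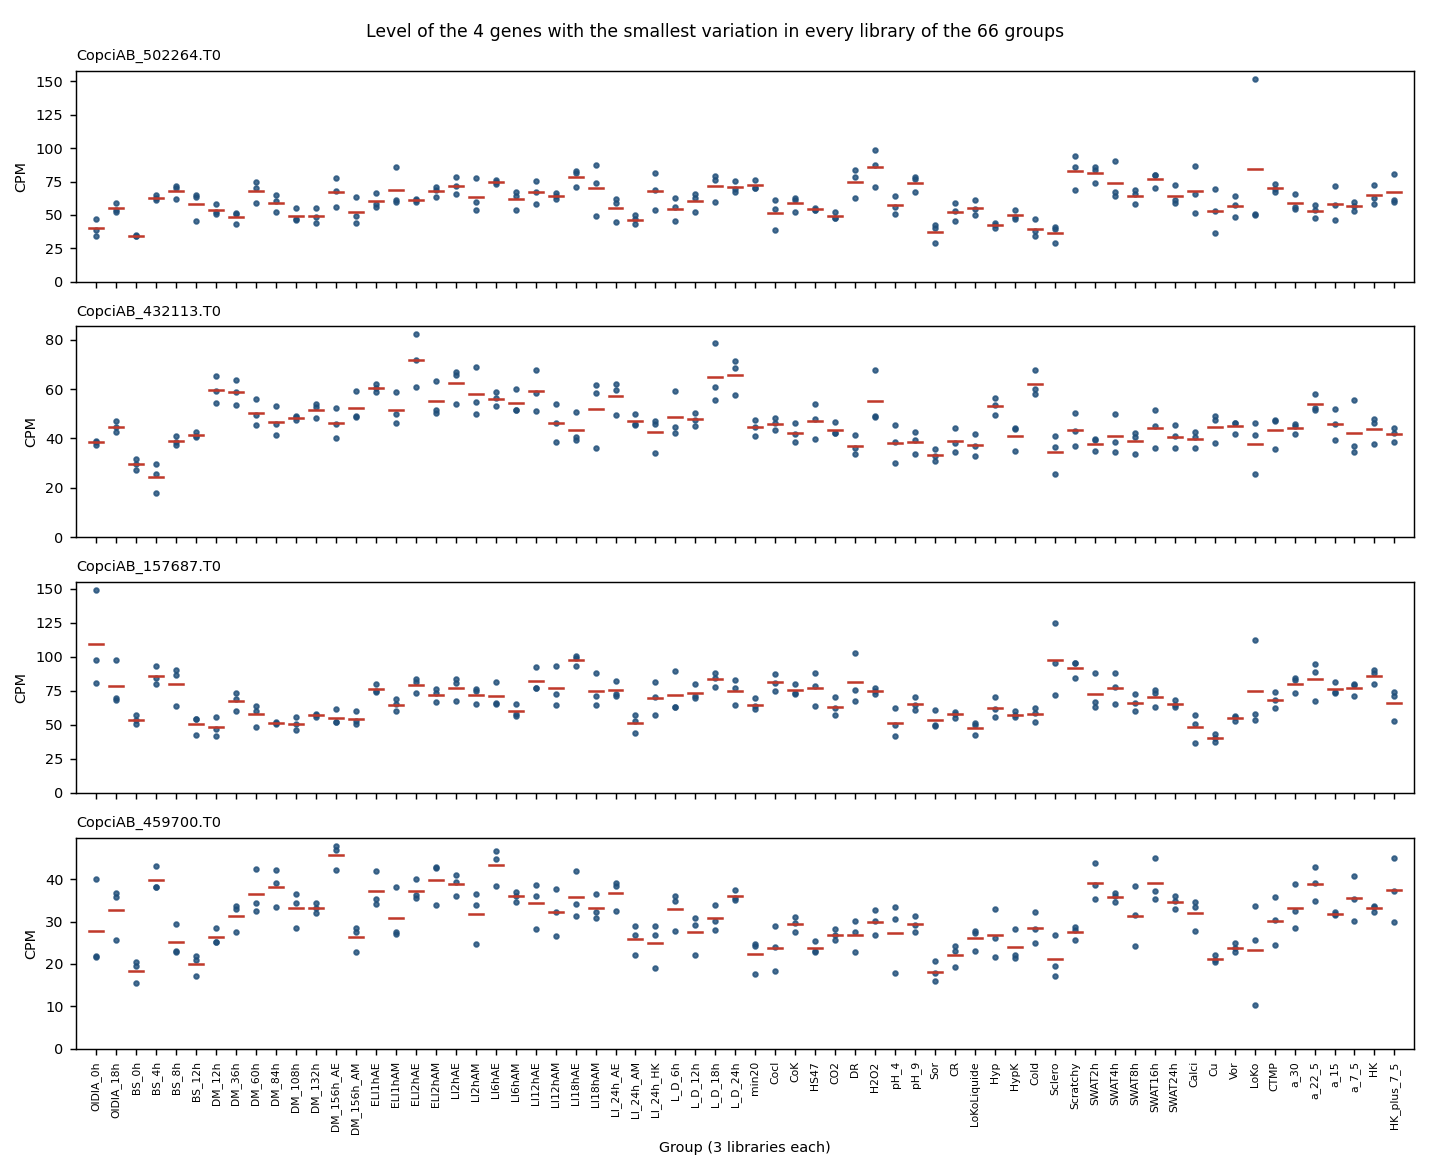
The 4 genes with the smallest CV are shown in all libraries of the 66 groups, in CPM, with a point for each library and a bar for each group mean over 3 libraries. Each gene stays in a band around its mean in most groups, with single points such as library 3 of LoKo at 152 CPM for CopciAB_502264.T0 standing away.

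The next 6 genes by CV showed the same pattern of a narrow band with departures in a few groups. CopciAB_361144.T0 (scaffold 2, 2203913 to 2206389, minus strand, 11 exons) averaged 175 CPM. It had 207, 180 and 204 CPM in OIDIA_18h, against 57.7, 39.0 and 58.9 CPM in OIDIA_0h, its lowest group, with no overlap and a log2 change of 2.18 ± 0.28. It was low in HS47 too, at 77.1, 63.7 and 65.9 CPM, with a log2 change of -1.01 ± 0.16 against DM_132h. CopciAB_360649.T0 (scaffold 2, 1226041 to 1227062, minus strand, 4 exons) averaged 89.8 CPM and had 22.2, 25.5 and 29.1 CPM in HS47, against 88.3, 80.5 and 87.6 CPM in the control DM_132h. The groups lay far apart, with a log2 change of -1.28 ± 0.17, and 4 h basidiospore germlings held its highest values, 129, 151 and 151 CPM.

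CopciAB_283456.T0 (scaffold 1, 1672874 to 1674805, minus strand, 9 exons) averaged 77.4 CPM and was also lowest under heat shock, with 30.9, 23.1 and 33.3 CPM in HS47, against 74.1, 78.5 and 86.2 CPM in DM_132h. It was highest in H2O2, with 107, 122 and 140 CPM, against 55.1, 67.2 and 67.8 CPM in LoKoLiquide. Neither pair of groups overlapped in CPM, but the log2 changes on the TMM scale were -1.01 ± 0.17 for heat shock and 0.32 ± 0.17, not called, for hydrogen peroxide. CopciAB_470082.T0 (scaffold 1, 2393533 to 2394840, plus strand, 5 exons) averaged 127 CPM and was lowest in sclerotia, with 66.9, 49.3 and 62.0 CPM in Sclero, against 163, 142 and 158 CPM in DM_132h, a log2 change of -1.03 ± 0.18. Both genes overlap a gene on the opposite strand, and since the strand setting of the counting is not given in the sources used here, their counts may include reads of that neighbour.

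CopciAB_439939.T0 (scaffold 6, 1596331 to 1598863, minus strand, 9 exons), which overlaps an opposite gene too, averaged 27.6 CPM. It had 51.8, 42.4 and 44.3 CPM in L_D_18h, its highest group, against 31.2, 33.9 and 24.7 CPM in the hyphal knots LI_24h_HK. CopciAB_279416.T0 (scaffold 8, 1931733 to 1935993, minus strand, 8 exons) averaged 34.0 CPM, with 56.6, 53.9 and 57.3 CPM in BS_4h, its highest group, against 23.0, 21.9 and 35.7 CPM in BS_0h. In both of these pairs the groups did not overlap in CPM, and in neither was the gene called, with log2 changes of 0.33 ± 0.16 for CopciAB_439939.T0 and 0.16 ± 0.18 for CopciAB_279416.T0. By TMM scaling 5 of the 10 genes kept their lowest group and 2 their highest, and over the 200 genes the numbers were 96 and 65.

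Some genes with a small CV over 66 groups still had a few groups far away. CopciAB_437401.T0 (scaffold 11, 410323 to 411820, plus strand, 4 exons) had the highest mean of the 200, 1381 CPM, and the largest ratio of highest to lowest group, 24.1. It had 288, 443 and 512 CPM in BS_4h, 671, 721 and 832 CPM in BS_8h and 569, 559 and 407 CPM in BS_12h, against 80.4, 84.5 and 89.8 CPM in BS_0h. Dark mycelium of 12 h had 1761, 1595 and 1910 CPM, so every germling library lay above resting basidiospores and below young mycelium. The log2 changes against BS_0h were 1.36, 2.19 and 1.92 at 4, 8 and 12 h (SE 0.19 each). Its count was not whole in 57.6% of the libraries.

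CopciAB_448177.T0 and CopciAB_427906.T0 had their lowest group in resting basidiospores as well. CopciAB_448177.T0 (scaffold 7, 886033 to 887757, minus strand, 4 exons) had 69.0, 76.8 and 88.6 CPM in BS_4h, against 20.4, 17.8 and 31.2 CPM in BS_0h, and reached 265, 297 and 290 CPM after 16 h of starvation, against 204, 201 and 181 CPM in DM_60h. Its log2 changes were 0.85 ± 0.18 in germination and 0.64 ± 0.15 in starvation, and neither pair overlapped. CopciAB_427906.T0 (scaffold 12, 1749211 to 1750806, plus strand, 3 exons) differed between the resting spores, with 408, 197.5 and 281 CPM in OIDIA_0h, against 17.5, 23.7 and 23.2 CPM in BS_0h, a log2 change of 2.53 ± 0.30. It overlaps a gene on the opposite strand.

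CopciAB_1000427.T0 and CopciAB_362622.T0 were lowest under heat shock. CopciAB_1000427.T0 (scaffold 2, 2163010 to 2163491, plus strand, 5 exons), the second most abundant member with a mean of 699 CPM, had 97.1, 90.2 and 81.1 CPM in HS47, against 668, 503 and 644 CPM in DM_132h, a log2 change of -2.31 ± 0.20. CopciAB_362622.T0 (scaffold 7, 1145229 to 1146004, plus strand, 4 exons, overlapping an opposite gene) had 15.6, 16.5 and 13.9 CPM in HS47, against 63.01, 59.3 and 64.4 CPM in DM_132h, a log2 change of -1.57 ± 0.18. In CPM it was highest in BS_4h, with 171, 168 and 178 CPM, against 79.7, 84.2 and 130 CPM in BS_0h, but on the TMM scale that difference was -0.08 ± 0.20 and was not called.

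At the ends of the range of levels, CopciAB_377981.T0 (scaffold 13, 110939 to 114934, minus strand, 3 exons, overlapping an opposite gene) had the third highest mean, 334 CPM, with 579, 614 and 613 CPM in a_30, its highest group, and 93.2, 85.2 and 116 CPM in BS_0h, its lowest. Its count was not whole in 50.5% of the libraries. The lowest mean belonged to CopciAB_413729.T0 (scaffold 1, 1042794 to 1044741, plus strand, 3 exons, overlapping an opposite gene) at 25.7 CPM. It had 43.6, 44.3 and 55.7 CPM in BS_4h, against 18.3, 16.7 and 27.0 CPM in BS_0h, which did not overlap in CPM and gave a log2 change of 0.31 ± 0.17 that was not called. CopciAB_448165.T0 (scaffold 2, 1415734 to 1418725, plus strand, 5 exons) followed CopciAB_439939.T0 as the third lowest, with a mean of 29.9 CPM.

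In CPM the lowest group of a stable gene was most often BS_0h or HS47, and how often a group was the extreme one depended on the scaling. Resting basidiospores were the lowest of the 66 groups for 53 of the 200 genes in CPM but for 16 by TMM, and the highest for 4 in CPM but for 48 by TMM. Heat shock was the lowest group for 44 genes in CPM and for 23 by TMM, and the highest for 8 in CPM and for 28 by TMM. Resting oidia were the lowest for 16 in CPM and for 49 by TMM, and the highest for 20 in CPM and for 4 by TMM. The other genes of the window shared much of this. In CPM, BS_0h was the lowest group for 26.5% of the stable genes and 20.3% of the other genes, HS47 for 22.0% and 16.0%, and OIDIA_0h was the highest for 10.0% and 10.1%. In CPM, Scratchy was also the highest group for 23 genes, BS_4h for 20, L_D_24h for 19 and H2O2 for 17.

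The middle of the 200 genes moved in the same way. Each gene was divided by its own mean, and the median over the 200 was 0.735 in BS_0h in CPM but 1.21 by TMM, and 0.788 in HS47 in CPM but 1.06 by TMM. In OIDIA_0h it was 0.916 in CPM and 0.713 by TMM, and in L_D_24h 1.22 in CPM and 0.979 by TMM. The 10 most abundant genes of a library held 21.2 to 25.1% of the counts in BS_0h and 25.4 to 34.7% in OIDIA_0h. They held 22.1 to 24.9% in HS47, against 15.2 to 16.4% in DM_132h, and 12.4 to 13.0% in L_D_24h. The part of those shares in the levels of the stable genes was not tested.

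**Figure D3:**
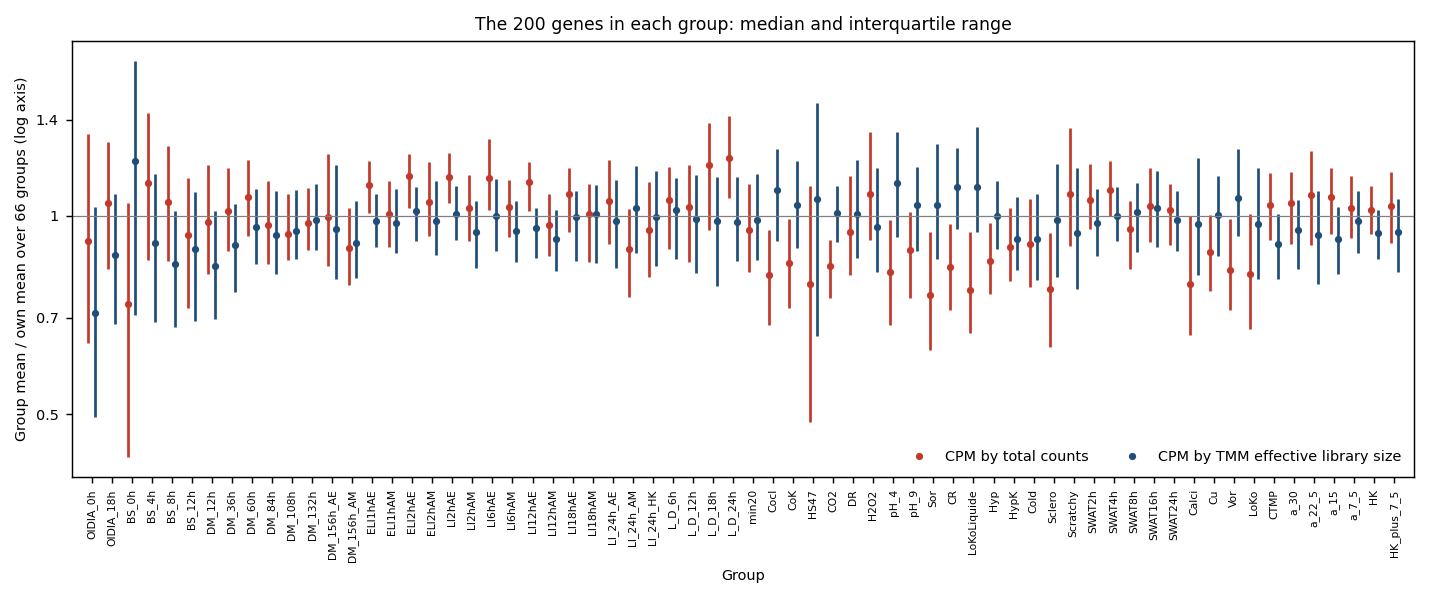
For each of the 66 groups, the point is the median over the 200 genes of the group mean divided by the gene's own mean (log axis), and the line is the interquartile range, in CPM and after TMM scaling. BS_0h is at 0.735 in CPM and at 1.21 by TMM, and the lines are longest in BS_0h, HS47 and OIDIA_0h under both.

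Libraries of the same group agreed closely for these genes. The mean CV within groups had a median of 0.129 over the 200 genes, with a range of 0.0816 to 0.228, against 0.155 for the other genes of the window. Between-library spread made up a median of 11.1% of the variance of the 66 group means of a stable gene, against 5.52% for the other genes of the window. Counting error was smaller still, with a median expected CV of 0.0221 for a group mean. The variation between groups was thus mostly larger than the spread between libraries, also in genes chosen for little variation. The share of between-library spread is divided by the variance of the group means, which the choice kept small. Its larger value in the stable genes therefore follows in part from the choice, and their smaller CV within groups may do so too.

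The tightest libraries belonged to CopciAB_431411.T0 (scaffold 7, 1236130 to 1237549, plus strand, 4 exons, overlapping an opposite gene), with a mean within-group CV of 0.0816. It had 331, 318 and 338 CPM in HS47, its highest group, against 193, 178 and 197.8 CPM in DM_132h. The log2 change was 1.25 ± 0.16, and its lowest group was OIDIA_0h, with 56.9, 47.4 and 56.6 CPM. CopciAB_423109.T0 (scaffold 7, 1252432 to 1255724, minus strand, 12 exons) also had close libraries and was highest under heat shock, with 178, 217 and 191 CPM in HS47, against 82.6, 102 and 80.7 CPM in DM_132h. CopciAB_540779.T0 (scaffold 2, 2538702 to 2540132, minus strand, 5 exons) went the other way, with 55.4, 51.9 and 52.2 CPM in HS47, against 223, 205 and 192 CPM in DM_132h. For all 3 genes the heat shock and control libraries did not overlap, with log2 changes of 1.60 ± 0.17 for CopciAB_423109.T0 and -1.51 ± 0.19 for CopciAB_540779.T0.

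The loosest libraries belonged to CopciAB_500975.T0 (scaffold 10, 1063533 to 1064972, plus strand, 7 exons), with a mean within-group CV of 0.228. It had 100.9, 83.2 and 64.6 CPM in DR, against 35.4, 34.1 and 34.8 CPM in DM_84h, with no overlap and a log2 change of 1.36 ± 0.19. CopciAB_386195.T0 (scaffold 5, 1891016 to 1892304, plus strand, 5 exons, overlapping an opposite gene) had 15.3, 14.5 and 15.2 CPM in HS47, against 94.2, 54.5 and 106 CPM in DM_132h. The control libraries were far apart and yet all above heat shock, with a log2 change of -2.04 ± 0.21. CopciAB_355380.T0 (scaffold 5, 1691079 to 1693251, minus strand, 10 exons, overlapping an opposite gene) had 79.1, 67.4 and 69.3 CPM in Scratchy, against 26.0, 22.1 and 26.3 CPM in DM_84h, a log2 change of 1.35 ± 0.21. CopciAB_537865.T0 (scaffold 5, 1851896 to 1858727, minus strand, 18 exons, overlapping an opposite gene) had 130, 189 and 120 CPM in OIDIA_18h, against 128, 77.3 and 72.7 CPM in OIDIA_0h, and these groups overlapped, with a log2 change of 0.92 ± 0.31.

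The same measure was taken in libraries that a choice had not used. When the 200 genes were chosen on 2 replicate numbers and the CV was computed over the 66 libraries of the number left out, its median was 0.293, 0.291 and 0.301 with numbers 1, 2 and 3 left out. The other genes of the window had medians of 0.495, 0.484 and 0.498 in the same libraries. Of the 200 genes, 180, 176 and 177 were chosen again. The groups are the same in these repeats, so they show agreement between libraries and not between conditions.

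The stable genes were then followed through the 59 comparisons between groups that entered the choice. The call asked for an adjusted p (Benjamini-Hochberg, over all genes) below 0.05 in edgeR's quasi-likelihood test, and the counts below also ask for a fold of 2 or more. Because the rule used these groups, the counts describe the genes and nothing is read from their distance to the share over all genes. For these comparisons the shares over all genes are from the fits with all libraries. Counts with libraries left out, with another method or at an unadjusted p stand without a share of their own. Whether the share over all genes moved with such a count is therefore not shown. Each of the 200 genes was called at some fold in at least 1 comparison, with a median of 15 comparisons. At 2-fold, 175 were called in at least 1 comparison and 25 in none, among them CopciAB_459700.T0 and CopciAB_439939.T0. Of the 1522 other genes of the window, 1499 were called at 2-fold in at least 1 comparison. A stable gene was called in a median of 2 comparisons and at most 14, and the other genes of the window in a median of 7. Of all pairs of gene and comparison, 4.66% were called for the stable genes, 14.4% for the other genes of the window and 19.9% for all genes tested.

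The spores held most of the calls. In OIDIA_0h against BS_0h 91 of the 200 genes were called, 7 higher and 84 lower in oidia, where 66.1% of all genes tested were called. Germination of oidia for 18 h gave 53 genes, 45 higher and 8 lower, where 53.9% of all genes tested were called. Without library 1 of each group this number was 83, a count given without its own share over all genes. Basidiospores at 4, 8 and 12 h gave 26, 59 and 68 genes against BS_0h, where 45.3%, 62.4% and 67.8% of all genes tested were called. In each of these 3 comparisons lower genes outnumbered higher ones, with 20 lower and 6 higher at 4 h, 42 and 17 at 8 h, and 44 and 24 at 12 h. These directions are those of the TMM scale, and in CPM the middle of the genes lay the other way. In CPM the median of the stable genes, each relative to its own mean, was 1.12, 1.05 and 0.935 at 4, 8 and 12 h, against 0.735 in BS_0h, and 0.916 in OIDIA_0h, against the same value in BS_0h. By TMM it was 0.909, 0.845 and 0.892 at 4, 8 and 12 h and 0.713 in OIDIA_0h, against 1.21 in BS_0h.

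Among treatments, HS47 against DM_132h gave 53 of the 200 genes, 22 higher and 31 lower, where 55.9% of all genes tested were called. With RLE size factors, and with DESeq2, the split was 27 higher and 25 lower. Sclerotia gave 20 genes, 10 in each direction, where 40.8% of all genes tested were called. Cutting gave 18, 9 in each direction, where 27.9% were called. In L_D_24h against LI_24h_HK 12 genes were called, 7 higher and 5 lower, where 32.1% of all genes tested were called, and 19 were called without library 2 of each group. Hydrogen peroxide gave 7, 1 higher and 6 lower, where 24.4% of all genes tested were called, and 20 without library 3 of each group. Sorbitol gave 6, 3 higher and 3 lower, where 17.8% of all genes tested were called, and with DESeq2 the split was 1 higher and 4 lower. L_D_18h against LI_24h_HK gave 6, 4 higher and 2 lower, where 23.9% of all genes tested were called, and with DESeq2 the split was 1 higher and 5 lower. Drought gave 5 at 2-fold and 66 at any fold, where 17.5% and 35.5% of all genes tested were called. Aerial against attached mycelium at 156 h gave 1 at 2-fold and 46 at any fold, where 17.7% and 27.3% of all genes tested were called.

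Starvation on water agar gave few calls of the stable genes at 2-fold, in groups that had themselves entered the choice. At 2, 4, 8, 16 and 24 h, 0, 1, 1, 2 and 1 of them were called against DM_60h in edgeR, where 14.4%, 17.0%, 25.3%, 24.5% and 25.8% of all genes tested were called. At any fold 42, 48, 65, 64 and 62 of them were called, where 32.5%, 34.6%, 45.0%, 44.0% and 45.6% of all genes tested were. At 2 h none reached 2-fold at an unadjusted p under 0.05 in edgeR either, and DESeq2 called 1. First contact with Trichoderma gave 1 gene at 2-fold, lower in CTMP, where 12.9% of all genes tested were called.

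In DM_132h against DM_12h 11 of the 200 were called, all higher, where 17.6% of all genes tested were called in either direction and 10.6% as higher. Without library 2 of each group 6 were called. The median of the stable genes relative to their own means was 0.987 in DM_132h, against 0.839 in DM_12h, by TMM, and 0.974 in DM_132h, against 0.978 in DM_12h, in CPM. DM_108h against DM_12h gave 13 genes at 2-fold and 92 at any fold, where 18.5% and 45.2% of all genes tested were called. In calcium against LoKo 9 were called, all higher, where 18.4% of all genes tested were called in either direction and 10.5% as higher. That count rested on single libraries, since 2 were called without library 1 of each group and 0 without library 2, and library 3 of LoKo stands apart. Without library 3 of each group, 8 genes were called for calcium, 4 for copper and 5 for voriconazole, counts without a share of their own. With all libraries 9, 1 and 4 were called, where 18.4%, 8.26% and 9.52% of all genes tested were called.

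In 12 comparisons edgeR called no stable gene at 2-fold, and none of the 200 reached 2-fold in them at an unadjusted p under 0.05. DESeq2 called 1 gene in 1 of them, SWAT2h against DM_60h. They included Hyp against HypK, pH_9 against LoKoLiquide and CO2 against DM_132h, where 1.12%, 1.90% and 11.3% of all genes tested were called. At any fold 0, 0 and 21 of the 200 were called by edgeR in these 3, where 1.18%, 2.91% and 22.7% of all genes tested were. At an unadjusted p under 0.05 the numbers were 15, 22 and 52, and DESeq2 called 0, 5 and 29. Of the other genes of the window, 0.657% were called at 2-fold in LI_24h_AE against DM_156h_AE and 5.58% in LI_24h_HK against LI_24h_AE. In CR against LoKoLiquide the share was 3.09%, and in Cocl against CoK 1.45%. Against a_30 it was 0.460% in a_22_5, 0.788% in a_15, 6.70% in a_7_5 and 3.61% in HK. All of these groups entered the choice, so the absence of calls describes the stable genes and does not test them, whatever the share.

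**Figure D4:**
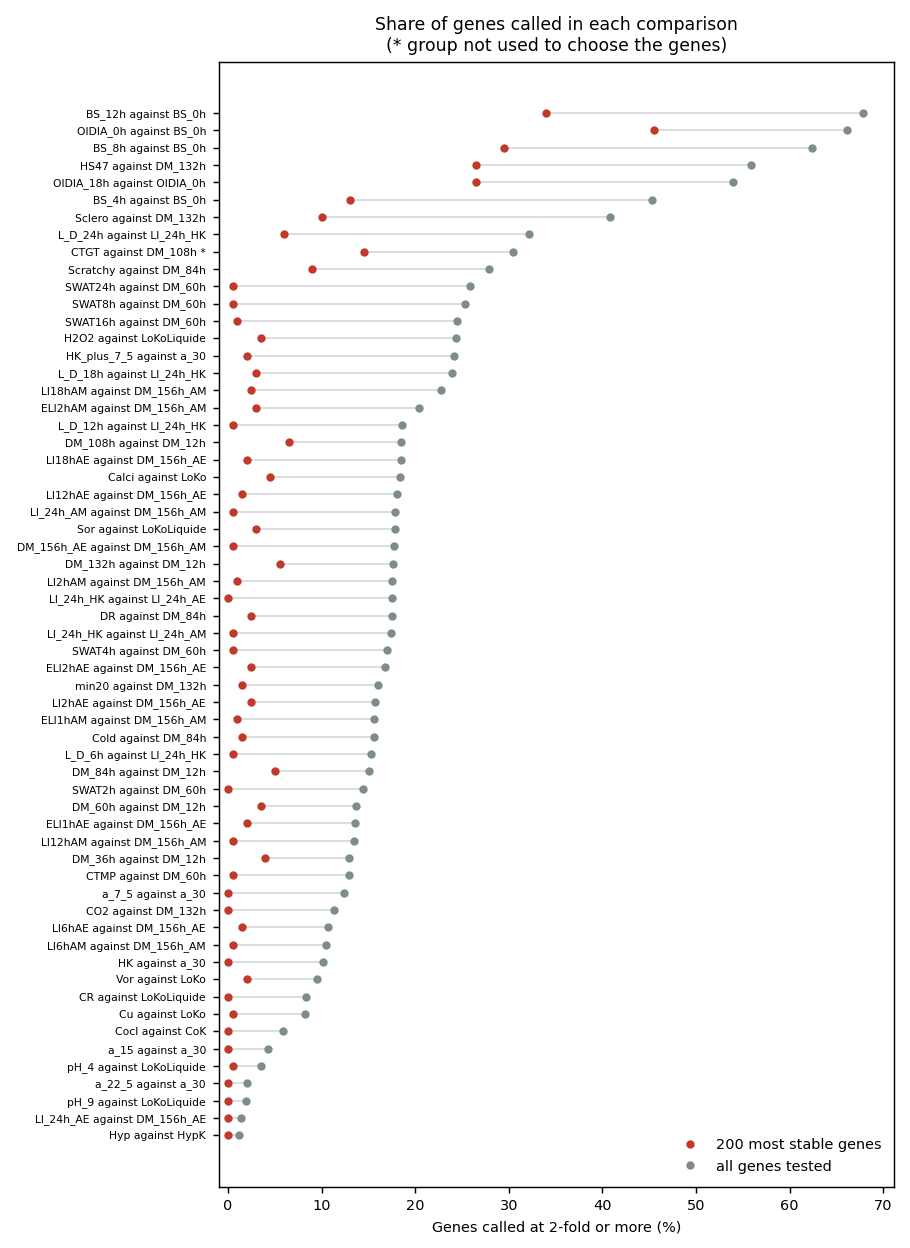
For each of 60 comparisons, the red point is the percent of the 200 stable genes called at 2-fold or more and the grey point the percent of all genes tested. The stable genes reach 45.5% in OIDIA_0h against BS_0h and 14.5% in CTGT against DM_108h, the comparison marked with a star. The CTGT libraries did not enter the choice.

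The member called most often was CopciAB_432457.T0 (scaffold 2, 237911 to 240171, minus strand, 6 exons), in 14 of the 59 comparisons. It had 158, 139 and 133 CPM in ELI1hAE and 180, 153 and 204 CPM in ELI2hAE, against 56.2, 44.2 and 25.6 CPM in DM_156h_AE. After 24 h of the following darkness LI_24h_AE had 52.1, 48.7 and 72.2 CPM. The light values lay apart from those before light, with log2 changes of 1.69 ± 0.25 and 2.01 ± 0.25, and the values at 24 h overlapped the range before light. Between the resting spores it had 89.7, 41.1 and 55.4 CPM in OIDIA_0h, against 226, 206 and 220 CPM in BS_0h, its highest group, a log2 change of -3.06 ± 0.31.

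CopciAB_374532.T0 (scaffold 8, 1842726 to 1845958, minus strand, 11 exons), called in 11, was also higher in the light. It had 87.6, 69.8 and 95.3 CPM in ELI1hAE, against 33.4, 40.5 and 28.8 CPM in DM_156h_AE. In primordia it had 88.7, 88.7 and 54.5 CPM in L_D_6h, against 26.2, 24.3 and 17.4 CPM in the knots LI_24h_HK, with no overlap in either pair and log2 changes of 1.21 ± 0.25 and 1.72 ± 0.25. CopciAB_378668.T0 (scaffold 3, 1700233 to 1706576, minus strand, 6 exons), also called in 11, was lower in the youngest mycelium, with 285, 257 and 292 CPM in DM_36h, against 141, 99.4 and 156 CPM in DM_12h, a log2 change of 1.12 ± 0.16.

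CopciAB_436985.T0 (scaffold 2, 1843333 to 1846319, minus strand, 11 exons) was called in 9, each time higher. It had 129, 137 and 89.4 CPM in Sclero, against 43.3, 38.0 and 41.1 CPM in DM_132h, and 135, 90.9 and 106 CPM in DR, against 42.8, 34.7 and 38.7 CPM in DM_84h. Neither pair overlapped, and the log2 changes were 1.86 ± 0.16 and 1.62 ± 0.20. CopciAB_368374.T0 (scaffold 1, 2759250 to 2761540, plus strand, 5 exons) was called in 9 too, although its CV of 0.224 gave it rank 16 among the 200. It had 126, 42.7 and 42.0 CPM in OIDIA_0h, where library 1 lay far above the other 2.

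The question that the choice could not answer in advance was how the stable genes behave where the mycelium and Trichoderma, a genus that includes parasites of other fungi, had grown over each other. The CTGT cultures held both fungi, and whether Trichoderma reads were counted on these gene models was not tested. That limit applies to every CTGT level and call below. In CTGT against DM_108h all 200 genes were tested among 9910. At any fold 49 were called, 9 higher and 40 lower, where 34.3% of all genes tested were called, 17.4% higher and 16.9% lower. That is 24.5% of the stable genes and 44.8% of the other genes of the window. At 2-fold or more 29 were called, 4 higher and 25 lower, where 30.4% of all genes tested were called, 16.0% higher and 14.5% lower. The shares were 14.5% of the stable genes and 34.6% of the other genes of the window.

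The changes of the stable genes were smaller in size. The median absolute log2 change was 0.47 for the stable genes, 0.69 for the other genes of the window and 0.85 for all genes tested. Within 2-fold lay 170 of the 200, or 85.0%, against 65.1% of the other genes of the window and 56.6% of all genes tested. The median log2 change, on the TMM scale, was -0.24 for the stable genes, -0.22 for the other genes of the window and -0.12 for all genes tested, and 140 of the 200 were below 0. The control DM_108h was 1 of the 66 groups of the choice, and the difference between the stable genes and the others was not tested.

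Levels in CPM stood lower than these changes imply. The median stable gene had 62.0, 26.2 and 32.2 CPM in the 3 CTGT libraries, against 74.6, 70.8 and 71.8 CPM in DM_108h, a median ratio of 0.562. In 115 of the 200 every CTGT library lay below every DM_108h library in CPM, where 40.3% of all genes tested had every CTGT library below. In CTGT, 3 gene models held 18.0%, 56.1% and 51.1% of the counts, against 0.126%, 0.192% and 0.0380% in DM_108h. Without models over 5% of the counts, 49 stable genes were called at any fold and 29 at 2-fold, as with them. The calls were made on the TMM scale, which does not follow the library total, so this says nothing about the levels in CPM. The counts behind these values were small, with a median of 13.3, 14.0 and 31.0 counts for a stable gene in the 3 CTGT libraries.

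Call numbers depended on single libraries. Without CTGT library 1, 75 genes were called at any fold and 48 at 2-fold, where 36.5% and 32.3% of all genes tested were called. Without DM_108h library 1, 2 or 3 they were 22, 17 and 24 at any fold, where 29.3%, 28.1% and 31.0% of all genes tested were called. At 2-fold they were 21, 17 and 22, where 29.0%, 27.8% and 30.0% of all genes tested were called. With replicate number as a block, 30 were called at any fold and 26 at 2-fold, where 25.8% and 24.6% of all genes tested were called. The median change of all genes was 0.27 under DESeq2, where the median of the stable genes was -0.21.

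**Figure D5:**
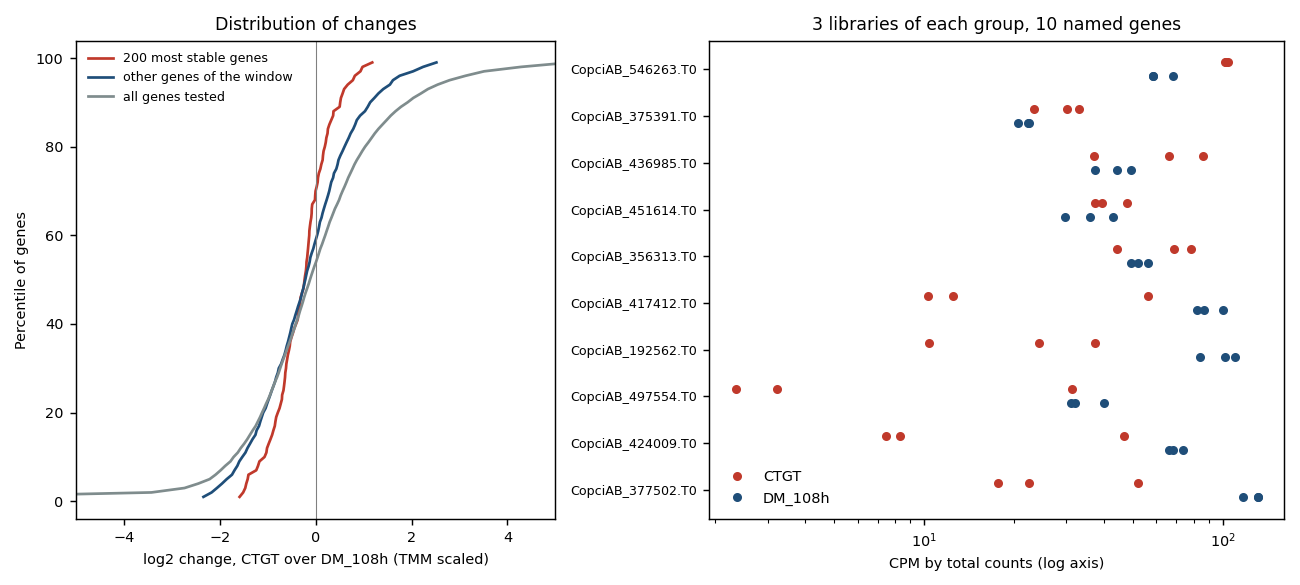
Left, the percentile of genes against the log2 change, CTGT over DM_108h, for the 200 stable genes, the other genes of the window and all genes tested. Right, CPM by total counts (log axis) in the 3 libraries of CTGT and of DM_108h for the 5 higher and 5 lower genes named in the text. The curve of the stable genes is the steepest, with medians of -0.24, -0.22 and -0.12.

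The stable gene with the largest rise was CopciAB_546263.T0 (scaffold 10, 279605 to 283761, minus strand, 5 exons). It had 102, 103 and 104 CPM in CTGT, against 58.3, 58.4 and 68.1 CPM in DM_108h. The groups did not overlap, and the log2 change was 1.49 ± 0.28 (SE) with an adjusted p of 0.00057 in edgeR's quasi-likelihood test. CopciAB_436985.T0, already named for sclerotia and drought, had 85.8, 37.0 and 66.1 CPM in CTGT, against 49.2, 44.3 and 37.5 CPM in DM_108h, with an overlap in CPM. Its log2 change was 1.18 ± 0.27 with an adjusted p of 0.0025.

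CopciAB_375391.T0 (scaffold 1, 3918162 to 3922032, minus strand, 11 exons) had 23.4, 33.1 and 30.2 CPM in CTGT, against 22.4, 22.4 and 20.6 CPM in DM_108h, and rose by a log2 change of 1.25. It rests on 5, 17.7 and 29 counts in the CTGT libraries. CopciAB_451614.T0 (scaffold 5, 1298486 to 1299441, minus strand, 2 exons, overlapping an opposite gene) had a log2 change of 1.02 with an adjusted p of 0.0136 in edgeR's quasi-likelihood test. This call was lost with the replicate block and without CTGT library 2, CTGT library 3 or DM_108h library 3, where its adjusted p reached 0.159. CopciAB_356313.T0 (scaffold 7, 1418692 to 1423503, minus strand, 10 exons) had a log2 change of 0.97, and its call was lost without CTGT library 3, with an adjusted p of 0.0735.

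The largest fall was that of CopciAB_377502.T0 (scaffold 2, 219536 to 220161, minus strand, 3 exons). It had 52.3, 22.5 and 17.7 CPM in CTGT, against 132, 132 and 117 CPM in DM_108h. All CTGT values lay under all DM_108h values, and the log2 change was -1.60 ± 0.30 with an adjusted p of 0.000498 in edgeR's quasi-likelihood test. CopciAB_424009.T0 (scaffold 3, 1893095 to 1895272, plus strand, 10 exons, overlapping an opposite gene) had 46.8, 7.49 and 8.32 CPM in CTGT, against 73.6, 68.3 and 66.3 CPM in DM_108h. Its library 1 of CTGT lay far above the other 2, and its log2 change was -1.59 ± 0.37.

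CopciAB_192562.T0 (scaffold 4, 1671366 to 1672252, minus strand, 7 exons, overlapping an opposite gene) had 37.4, 24.3 and 10.4 CPM in CTGT, against 110, 102 and 84.1 CPM in DM_108h, with a log2 change of -1.58 ± 0.35. CopciAB_417412.T0 (scaffold 12, 1040442 to 1044056, plus strand, 10 exons, overlapping an opposite gene) had 56.1, 10.3 and 12.5 CPM in CTGT, against 82.0, 86.6 and 100 CPM in DM_108h, with a log2 change of -1.52 ± 0.34. Neither gene overlapped between the groups. CopciAB_497554.T0 (scaffold 4, 3261525 to 3268391, minus strand, 5 exons, overlapping an opposite gene) had 31.2, 3.22 and 2.34 CPM in CTGT, against 31.1, 32.0 and 40.0 CPM in DM_108h. Library 1 of CTGT lay within the control range, and the call, at a log2 change of -1.59 ± 0.51, was lost in 6 of 11 alternative settings, with an adjusted p of up to 0.239. Of the 10 genes named here 7 kept their call under all 11 alternatives, and none changed direction.

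The annotation of the deposited models was not used in the choice. The stable genes had a median of 5 exons, against 6 in the other genes of the window and 5 in all counted genes. Their median transcript was 1769 bases long with 1455 coding bases and a 3′ UTR of 184 bases, against 1641, 1337 and 165 bases in the other genes of the window and 1435, 1116 and 126 bases in all counted genes. Single-exon genes made up 1.5% of the stable genes, 1.25% of the other genes of the window and 7.95% of all counted genes. The 3 of them included CopciAB_370255.T0 and CopciAB_444990.T0 (scaffold 7, 714752 to 716904, plus strand, and scaffold 3, 2631224 to 2631911, plus strand). No test was made of these features.

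At the extremes of structure, 10 of the 200 had 15 or more exons, among them CopciAB_432113.T0 and CopciAB_429433.T0 (scaffold 2, 1875282 to 1879803, plus strand, 18 exons, overlapping an opposite gene). That is 5.0% of the stable genes, against 5.58% of the other genes of the window and 5.02% of all counted genes. A coding length of at most 100 residues was found in 8, among them CopciAB_360295.T0 and CopciAB_359499.T0 with 81 residues each, or 4.0% of the stable genes, against 3.88% of the other genes of the window and 8.46% of all counted genes. A 5′ UTR of 500 bases or more was found in 3, among them CopciAB_131936.T0 with 576 bases and CopciAB_377981.T0 with 627 bases. That is 1.5% of the stable genes, against 1.51% of the other genes of the window and 5.74% of all counted genes. Models with the newer numbers made up 2.0% of the stable genes, against 3.22% of the other genes of the window and 14.4% of all counted genes. They included CopciAB_1000427.T0 with 64 residues and CopciAB_1000306.T0 with 1046 residues. The level of CopciAB_360295.T0, 105 CPM on average, and that of CopciAB_1000306.T0, 159 CPM, lay above the median of the 200.

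Neighbours were close. Of the 200 genes 99, or 49.5%, had a head-to-head neighbour whose start lay at most 500 bases away, against 43.8% of the other genes of the window and 31.6% of all counted genes. The partners were not chosen for a small CV, except that CopciAB_429443.T0 and CopciAB_463961.T0, both stable genes, were partners of each other. Of the 99 genes 22 had a partner in the window. The partner with the highest CV, that of CopciAB_431411.T0, averaged only 0.668 CPM. The median CV of the 99 partners was 0.571 with a range of 0.251 to 3.06, against 0.585 over all 4304 genes with such a neighbour. A CV under the limit of the choice was found in 4 of the 99. Both CopciAB_463961.T0 and CopciAB_429443.T0 were among these, and the lowest value, 0.251, was that of CopciAB_429443.T0. The partner of CopciAB_459700.T0, for instance, had a CV of 0.883, and that of CopciAB_361144.T0 one of 0.553.

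Overlap with a gene on the opposite strand was annotated for 59 of the 200, or 29.5%, against 24.0% of the other genes of the window, and 4 overlapped a gene on the same strand. The counts of these genes are uncertain, since a neighbour's reads may be among them. In 57 the overlap was between the 3′ ends of converging genes, where 3′ end reads lie. More than 1 isoform was annotated for 23 of the 200, or 11.5%, against 6.57% of the other genes of the window.

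The stable genes lay on 14 of the 20 scaffolds, with 33 on scaffold 2 and 29 on scaffold 1, and 1 of them, CopciAB_380266.T0, lay within 50 kb of the end of a large scaffold. In 4 cases the next counted gene was also a stable gene. CopciAB_429443.T0 and CopciAB_463961.T0 on scaffold 2 were a head-to-head pair, and CopciAB_493085.T0 and CopciAB_537865.T0 on scaffold 5 converged and overlapped. The other pairs were CopciAB_500542.T0 with CopciAB_325866.T0 on scaffold 11 and CopciAB_1000427.T0 with CopciAB_108726.T0 on scaffold 2.

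The choice of the most stable genes changed with the scaling. With TMM effective library sizes 116 of the 200 were chosen again, and with RLE size factors 110. By TMM 190 of the 200 stayed in the window, the CV of the 200 had a median of 0.250 and lay between 0.154 and 0.401, and 159 of them were among the 400 genes of smallest CV. Of the 10 genes of smallest CV described above, 9 were among the 200 by TMM as well. Leaving out resting spores and sclerotia returned 135 of the 200, and the SD of the log2 group means in place of the CV returned 142.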

How the data were processed

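QuantSeq 3′ mRNA sequencing, which reads the 3′ end of each transcript, was done in 201 libraries, 3 for each of 67 groups. The reads were aligned with STAR 2.6.1a and counted with featureCounts, per the submitters' processing notes. For featureCounts, the version and the settings for strand and ambiguous reads were not given in the sources used here. The table deposited by the authors holds estimated counts per gene model, since 19.9% of the nonzero values were not whole (tolerance 0), and they were rounded for the count tests. CPM was computed from the deposited counts by library total, with no rounding and no length scaling. All sample columns of the table were used. Gene models came from the deposited annotation, whose coordinates are those of the CopciAB scaffolds.

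The members and lists were chosen with earlier results of these data known. The genes named are the 10 of smallest CV, those beside the limit, the extremes of ratio, level and replicate spread, the 5 higher and 5 lower of largest change in CTGT, those called most often, and up to 2 for each annotation class. Of the extremes of replicate spread, values are given for the first few.

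Sample titles gave the groups and replicate numbers. Whether the replicates were separate cultures is not stated, and the p-values then reflect library spread alone, which may be technical. Comparisons were fitted in edgeR 4.0.16 (R 4.3.3) with TMM scaling, filterByExpr at a minimum count of 10, the robust quasi-likelihood test and Benjamini-Hochberg adjustment over all genes tested. The log2 changes are from these fits. The procedure was tested on simulated data. In data simulated for CTGT against DM_108h, 6% of the true 1.5-fold changes, 22% of the 2-fold and 80% of the 4-fold ones were recovered. For HS47 against DM_132h the shares were 8%, 62% and 88%, each out of 50 changed genes. A gene not called in CTGT may thus still have changed. The simulation took each pair of groups alone and gave both the gene proportions of the control, apart from the changed genes. The HS47 calls above came from a fit with more groups. The recovered shares may therefore differ in the real data. DESeq2 1.42.0, RLE size factors, no low-count filter, a replicate block and leaving out libraries were alternatives. Choices and figures used Python 3.11.15, numpy 2.4.6, pandas 2.3.3 and matplotlib 3.10.9.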

Additional observations from a re-analysis of the deposited data

Results flagged for a closer look

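The response to light was compared between aerial and attached mycelium with an interaction term in edgeR's quasi-likelihood test. These groups entered the choice of the stable genes, so the values for stable genes describe them. At 1 h and at 2 h, 1 of the 200 was called at 2-fold.

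CopciAB_540528.T0 had 223, 297 and 279 CPM in ELI1hAE, against 101.2, 125 and 116 CPM in DM_156h_AE. In attached mycelium it had 180, 243 and 225 CPM in ELI1hAM, against 166, 192 and 215 CPM in DM_156h_AM. The aerial libraries did not overlap and the attached ones did. The response after 1 h was larger in aerial than in attached mycelium by 1.08 ± 0.29 (SE) on the log2 scale, with an adjusted p of 0.0257 in edgeR, where 353 of 11812 genes tested (2.99%) were called at 2-fold.

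CopciAB_380266.T0 had 106, 75.6 and 98.8 CPM in ELI2hAE, against 44.6, 44.7 and 54.4 CPM in DM_156h_AE. In attached mycelium it had 77.7, 73.6 and 85.1 CPM in ELI2hAM, against 88.1, 95.4 and 91.8 CPM in DM_156h_AM. It was higher after light in the aerial libraries and lower in the attached ones, with no overlap in either tissue. The responses after 2 h differed by 1.25 ± 0.26 (SE) on the log2 scale, with an adjusted p of 0.0011 in edgeR, where 603 of the 11812 genes (5.11%) were called at 2-fold.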

How the results depend on the processing

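Scaling moved the choice most: 116 of the 200 genes were chosen again with TMM effective library sizes and 110 with RLE size factors, against 135 to 199 under the other alternatives. For CTGT against DM_108h, 30 genes were called with the replicate block, against 49 without it (25.8% and 34.3% of all genes tested), and 17 to 75 with 1 library left out. At 2-fold the range with 1 library left out was 17 to 48. The replicate numbers did not pair these libraries, since over the genes of the window the correlations of same-numbered deviations were -0.00397, -0.0312 and -0.00133. The numbers paired in 3 of 60 comparisons (DM_108h against DM_12h, DM_156h_AE against DM_156h_AM and DR against DM_84h), where the block left the 2-fold counts at 13, 1 and 5 and gave 90, 45 and 56 calls at any fold, against 92, 46 and 66 without it, where 45.2%, 27.3% and 35.5% of all genes tested were called without it. Over the other 59 comparisons, the genes called at 2-fold in at least 1 numbered 171 to 179 under the alternatives, and the pairs of gene and comparison 553 to 626. These counts stand without a share over all genes. The 3 CTGT libraries held 213736, 533936 and 961041 counts, and the part of depth in the calls was not tested.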
